A study of Mus musculus with 48 samples.

Results

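Cells of the mCh sort from cortex were compared with cells of the same sort from hippocampus. The comparison holds 12 of the 48 libraries of the series, 6 from cortex and 6 from hippocampus, and each region has 3 libraries labelled Gq-CNO and 3 labelled Gq-Saline. All 12 share 1 table of normalised values, which also holds 6 libraries of the same sort from olfactory bulb. The mice are labelled Aldh1l1-GFP, in which the promoter of an astrocytic folate enzyme drives green fluorescent protein. Gq names a designer receptor coupled to Gq proteins, CNO (clozapine-N-oxide) is its ligand, and saline is the vehicle, so, as the labels read, the receptor was present in both treatment groups. mCh stands for mCherry, a red fluorescent protein, and the titles call the sorted cells neurons. The labels used here give neither the promoter that drove mCherry or the receptor, nor the age of the mice, and they do not say which libraries came from 1 animal. Region was tested with treatment as a covariate, so each difference below is cortex minus hippocampus at equal treatment.

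Cortex and hippocampus both belong to the forebrain, and their excitatory neurons share much of their transcript repertoire. Cortical projection neurons are known by transcription factors such as Tbr1, hippocampal granule cells by Prox1, and hippocampal pyramidal cells by a high content of the alpha-5 GABA receptor subunit gene Gabra5. Glial cells also differ by region, and hippocampal astrocytes are known for more of the filament protein GFAP than cortical ones.

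The libraries differed in depth by region. Cortical libraries held 228048 to 2488821 reads, and hippocampal libraries held 2226636 to 10295394. The values are reads divided by 1 size factor per library, called normalised reads here. In the shallowest cortical library, Gq-CNO replicate 3, a single read is worth 10.5 normalised reads, so genes of low level often read 0 there. The column name of that library also carries the mark v2, which the labels do not explain. Over the 11276 genes tested, 38.9% were higher in cortex and the median log2 difference was -0.18 by limma and -0.08 by edgeR, and it was -0.03 after quantile normalisation. The median was 0.09 over the 280 genes with a mean of at least 1000 normalised reads. Differences are on the log2(normalised reads + 1) scale, and p-values are from limma with Benjamini-Hochberg adjustment over all 11276 genes. For low genes the size of a difference depends on the added 1, and it could be larger or smaller than by edgeR. The median of 14 tested hippocampal neuron genes, described below, was -0.89 by limma and -0.07 by edgeR. Naalad2 had -4.51 by limma and -5.25 by edgeR. A gene is called where the adjusted p is below 0.05. The labels do not tie libraries to animals, and p-values here set differences against the spread among libraries, which may be partly technical.

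The sort was checked against markers of the cell types of the brain. Neuronal transcripts were present in every library, and so were those of microglia, oligodendrocytes and astrocytes. The summed level of the 12 neuron markers was 8004 to 12999 normalised reads in cortical libraries, against 4961 to 7821 in hippocampal libraries, and the groups did not overlap. As RPM (reads scaled to an equal library total) they overlapped, with a lowest cortical value of 3343 and a highest hippocampal one of 3353. Summed microglia markers (16 genes, all detected) were 30338 to 42228 in cortical libraries, against 28253 to 41363 in hippocampal libraries. Summed oligodendrocyte markers (12 genes) were 51538 to 104100.0 in cortical libraries, against 49872 to 164268 in hippocampal libraries. Summed astrocyte markers (16 genes) were 14224 to 26013 in cortical libraries, against 15754 to 28712 in hippocampal libraries. These 3 glial sums overlapped widely between the regions. Markers of blood leukocytes summed to 0 to 21.6 in cortical libraries and 1.81 to 14.4 in hippocampal ones, with 9 of 12 at 0 throughout. With transcripts of neurons and of glia in every library, these data do not show a sort of neurons only, and sums of different lists are not compared because they are not per length. A difference in bulk RNA cannot tell fewer cells of a type from less RNA per cell. The part of the neuron sums in the results below was not tested.

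**Figure D1:**
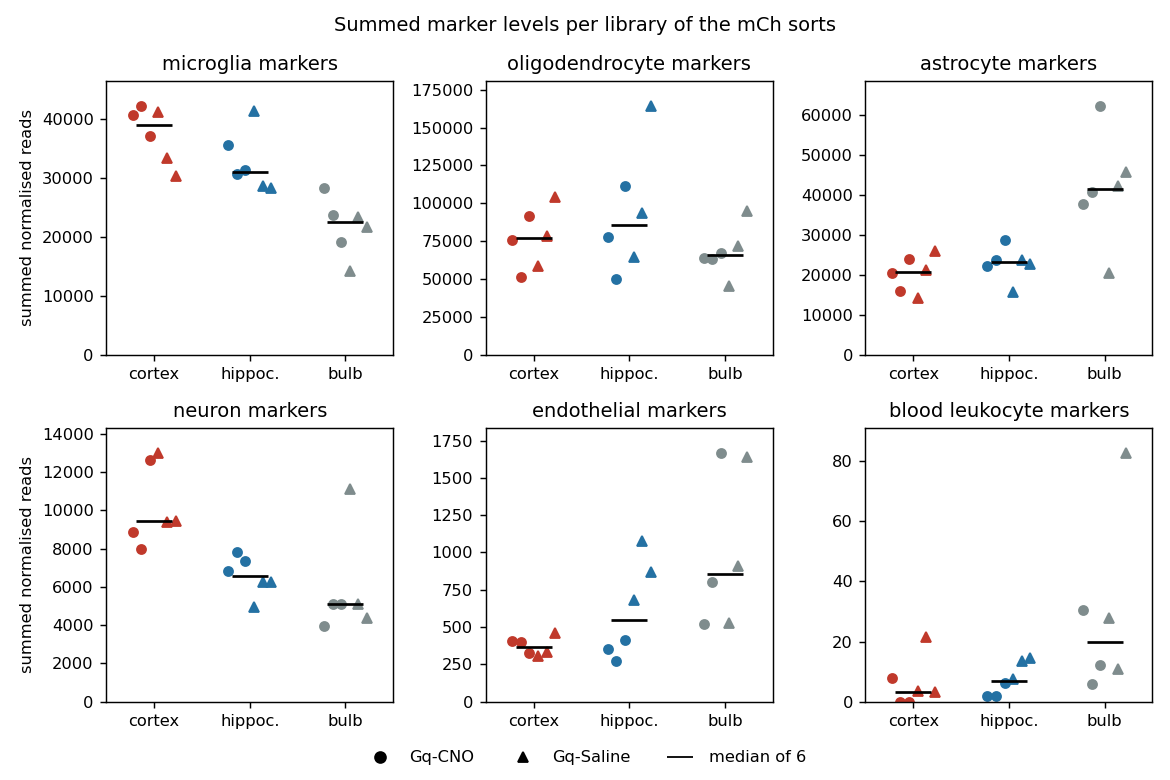
Summed normalised reads of 6 marker lists (vertical axes, from 0) in each library of the mCh sorts from cortex, hippocampus and olfactory bulb (horizontal axes). Each point is 1 library, with circles for Gq-CNO and triangles for Gq-Saline, and bars mark the median of 6. Neuron markers stood at 8004 to 12999 in cortex and 4961 to 7821 in hippocampus, without overlap on this scale though not as RPM, while the glial sums of these regions overlapped.

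Of 11276 genes tested, 36 (0.319%) differed between cortex and hippocampus, 23 higher in cortex (0.204%) and 13 lower (0.115%). At an unadjusted p below 0.05 there were 951. For 78 genes (0.692%) the 6 cortical values did not overlap the 6 hippocampal ones, and 24 of these were among the 36. Among the genes higher in cortex were Camk2n1, Prkcb and Itpr1 of calcium signalling, the scaffold gene Dlg2 and the cortical transcription factor gene Tbr1. Among those lower in cortex were the receptor genes Gabra5, Gria2 and Grm5 and the astrocyte filament gene Gfap. The median of the mean level over the 12 libraries was 845 normalised reads for the genes higher in cortex and 155 for those lower. edgeR, run on whole reads recovered from the same values, called 23 genes (17 higher in cortex), 20 of them among the 36. DESeq2 called 110 (66 higher), and 35 of the 36 were among them. The split of calls was 20 higher and 19 lower after quantile normalisation. Every one of the 36 kept its sign under each alternative in which it was tested. All 36 were chosen on these same libraries, which fixes much of that, most of all for the 24 without overlap.

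**Figure D2:**
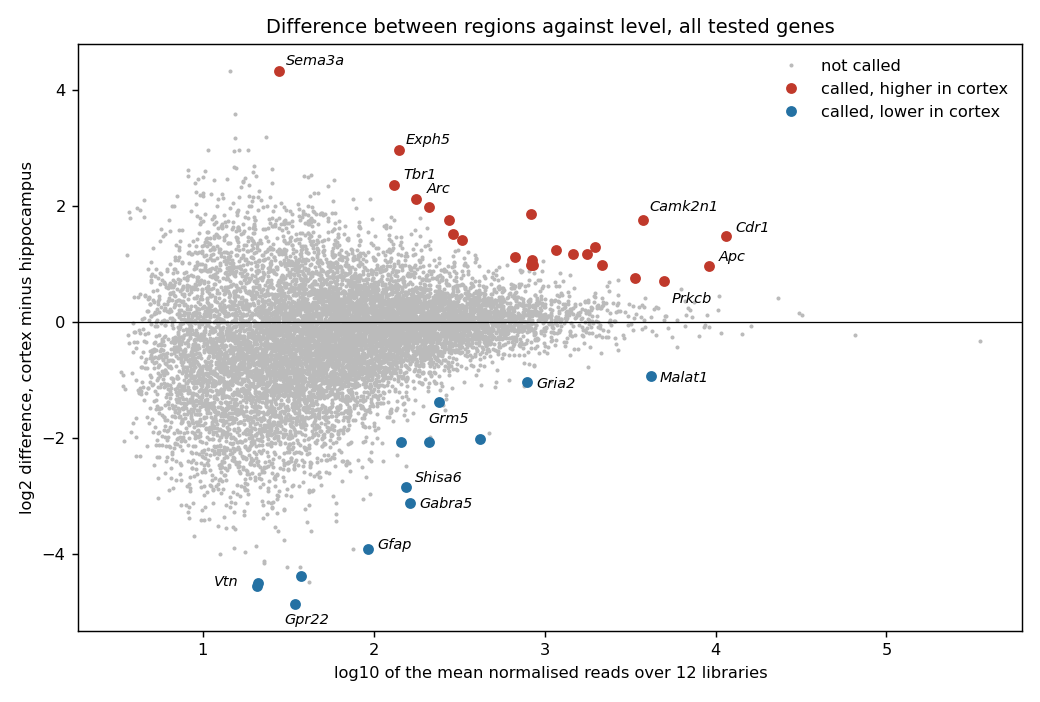
Log2 difference, cortex minus hippocampus (vertical axis), against the log10 of the mean normalised reads over the 12 libraries (horizontal axis) for the 11276 tested genes. Coloured points are the 36 called genes, 23 higher and 13 lower in cortex, with some of them named. The calls higher in cortex lie mostly at high levels with differences of 0.71 to 2.97 (4.34 for Sema3a), and the calls lower in cortex reach -4.87 at low levels.

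Cdr1 and Camk2n1 had the smallest adjusted p. Cdr1 is a gene of the X chromosome first known from an antigen of cerebellar degeneration. Cdr1 had between 12429 and 26686 normalised reads (median 14666) in the 6 cortical libraries, against 5229 to 6523 (median 5944) in the 6 hippocampal ones. Every cortical library was above every hippocampal one, and the cortical values spread more widely (log2 difference 1.48, SE 0.15, adjusted p = 4.08e-08). Cdr1 lies at chrX:61184005-61185558 on the minus strand (GRCm38, GENCODE vM21), inside an exon of the long noncoding RNA gene C230004F18Rik on the plus strand. Whether reads were counted by strand is not given in the sources used here, so reads of the Cdr1 gene and of transcripts of the opposite strand cannot be told apart. C230004F18Rik itself was listed at 0 to 24.5 normalised reads in cortical libraries and at 0 to 9.74 in hippocampal ones.

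Several of the genes higher in cortex act in calcium signalling. They were picked from the called genes after the values were seen, and no list of such genes was tested. Camk2n1 (chr4:138454314-138460123), which encodes an inhibitor of the calcium-dependent kinase CaMKII, had between 4688 and 6965 normalised reads (median 5713) in the 6 cortical libraries, against 1005 to 2353 (median 1766) in the 6 hippocampal ones. All cortical values were well above all hippocampal ones (log2 difference 1.76, SE 0.18, adjusted p = 4.08e-08). Camk2a, the kinase subunit itself, had 9089.8 to 14376 (median 11997) in cortical libraries, against 4492 to 13772 (median 8971) in hippocampal ones, and did not pass the test (log2 difference 0.44, SE 0.17, adjusted p = 0.425). Prkcb, a calcium-activated protein kinase C, had between 4991 and 8535 normalised reads (median 5826) in the 6 cortical libraries, against 3030.2 to 4378 (median 3819) in the 6 hippocampal ones. Its groups were close but did not overlap (log2 difference 0.71, SE 0.15, adjusted p = 0.0207). Itpr1, the inositol trisphosphate receptor that releases calcium from the endoplasmic reticulum, had 1156 to 2540.4 (median 1579.9) in cortical libraries, against 414 to 1013 (median 714) in hippocampal ones (log2 difference 1.25, SE 0.23, adjusted p = 0.00493). Atp2b2, a calcium pump of the plasma membrane, had 720.4 to 1288 (median 872) in cortical libraries, against 357 to 484 (median 416) in hippocampal ones (log2 difference 1.13, SE 0.23, adjusted p = 0.0171). Both were without overlap. Hpcal4, a calcium sensor of neurons, had 1979.6 to 3412 (median 3122) in cortical libraries, against 833 to 2063 (median 1494) in hippocampal ones, where 1 hippocampal value lay above the lowest cortical one (log2 difference 0.98, SE 0.20, adjusted p = 0.0111). Hpcal4 and some other called genes fall outside the naming rule and are named because they were called.

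Other genes higher in cortex encode scaffolds or cytoskeletal proteins, and these too were picked from the called genes after the values were seen. Dlg2, the postsynaptic scaffold PSD-93, had between 2283 and 4169 normalised reads (median 2339) in the 6 cortical libraries, against 555 to 1539 (median 1194) in the 6 hippocampal ones, a difference of 1.30 (SE 0.22, adjusted p = 0.00102). Sipa1l1, a postsynaptic regulator of the small GTPase Rap, had between 1426 and 2528 normalised reads (median 1991) in the 6 cortical libraries, against 672 to 1044 (median 893) in the 6 hippocampal ones, a difference of 1.16 (SE 0.19, adjusted p = 0.00102). Neither gene's groups overlapped. Rims1, which organises vesicle release at the active zone, had 881 to 1401 (median 1061) in cortical libraries, against 360.2 to 828 (median 557) in hippocampal ones, without overlap (log2 difference 0.98, SE 0.23, adjusted p = 0.047). Map2, the dendritic microtubule protein, had 3573 to 5068 (median 3969) in cortical libraries, against 1530.0 to 3684 (median 2405) in hippocampal ones, and 1 hippocampal library lay above 2 cortical ones (log2 difference 0.76, SE 0.17, adjusted p = 0.0374). Apc, a microtubule-binding protein and brake on Wnt signalling, had 8603 to 15719.7 (median 12496) in cortical libraries, against 4549.6 to 8617 (median 6356) in hippocampal ones (log2 difference 0.96, SE 0.15, adjusted p = 4.68e-04). Its highest hippocampal value was just above its lowest cortical one. Zfp365, a zinc finger gene, had 2140.1 to 2922 (median 2356) in cortical libraries, against 744 to 1451 (median 1088) in hippocampal ones, without overlap (log2 difference 1.17, SE 0.19, adjusted p = 7.97e-04).

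Of the genes higher in cortex that the naming rule gives, Exph5 (chr9:53301670-53377514) and Tbr1 (chr2:61802930-61814114) had the largest differences. Exph5, an effector of the vesicle GTPase Rab27, had between 171 and 294 normalised reads (median 241) in the 6 cortical libraries, against 5.44 to 93.9 (median 39.1) in the 6 hippocampal ones. The lowest cortical library stood well above the highest hippocampal one (log2 difference 2.97, SE 0.55, adjusted p = 0.00493). Tbr1, a transcription factor of deep-layer cortical projection neurons, had between 116 and 296 normalised reads (median 246) in the 6 cortical libraries, against 16.3 to 90.0 (median 37.7) in the 6 hippocampal ones. Here the closest values of the regions were less far apart (log2 difference 2.37, SE 0.50, adjusted p = 0.0207). Arc, an activity-induced gene whose protein acts in the removal of glutamate receptors from the membrane, had between 136 and 694 normalised reads (median 207) in the 6 cortical libraries, against 36.7 to 91.1 (median 56.6) in the 6 hippocampal ones, again without overlap (log2 difference 2.13, SE 0.44, adjusted p = 0.0182). The highest Arc value, in cortical Gq-Saline replicate 3, was well above the next highest cortical one, 343 in Gq-Saline replicate 2. Sema3a, a secreted axon guidance molecule, had 12.2 to 94.4 (median 51.5) in cortical libraries, against 0 to 4.53 (median 1.31) in hippocampal ones, and its fitted difference moved between 2.27 and 5.79 with the settings (adjusted p = 0.047 by limma).

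The remaining genes higher in cortex have varied roles. Fam81a had 208 to 912 (median 360.4) normalised reads in cortical libraries and 37.4 to 198 (median 122) in hippocampal ones, a difference of 1.76 (SE 0.38, adjusted p = 0.0235). Pdxk, the kinase that makes active vitamin B6, had 252 to 1129.9 (median 417) in cortical libraries and 132 to 184 (median 166) in hippocampal ones, a difference of 1.41 (SE 0.33, adjusted p = 0.047). Neither overlapped between the regions. The gene model 4933409K07Rik had 650.3 to 1876 (median 1333) in cortical libraries and 198 to 719 (median 272) in hippocampal ones, with slight overlap (log2 difference 1.87, SE 0.29, adjusted p = 4.68e-04). Log2 differences were 1.98 for AI597479 (adjusted p = 0.0374), 1.52 for Trnp1 (adjusted p = 0.0374) and 1.07 for R3hdm1 (adjusted p = 0.047). Trnp1 encodes a nuclear protein known from neural progenitors. Bin2, a membrane-shaping protein of blood and microglial cells, had 831 to 1437 (median 1151) in cortical libraries and 359.6 to 844 (median 595) in hippocampal ones (log2 difference 0.98, SE 0.23, adjusted p = 0.047). Its groups overlapped at 1 pair of libraries, and the summed microglia markers given above overlapped too.

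**Figure D3:**
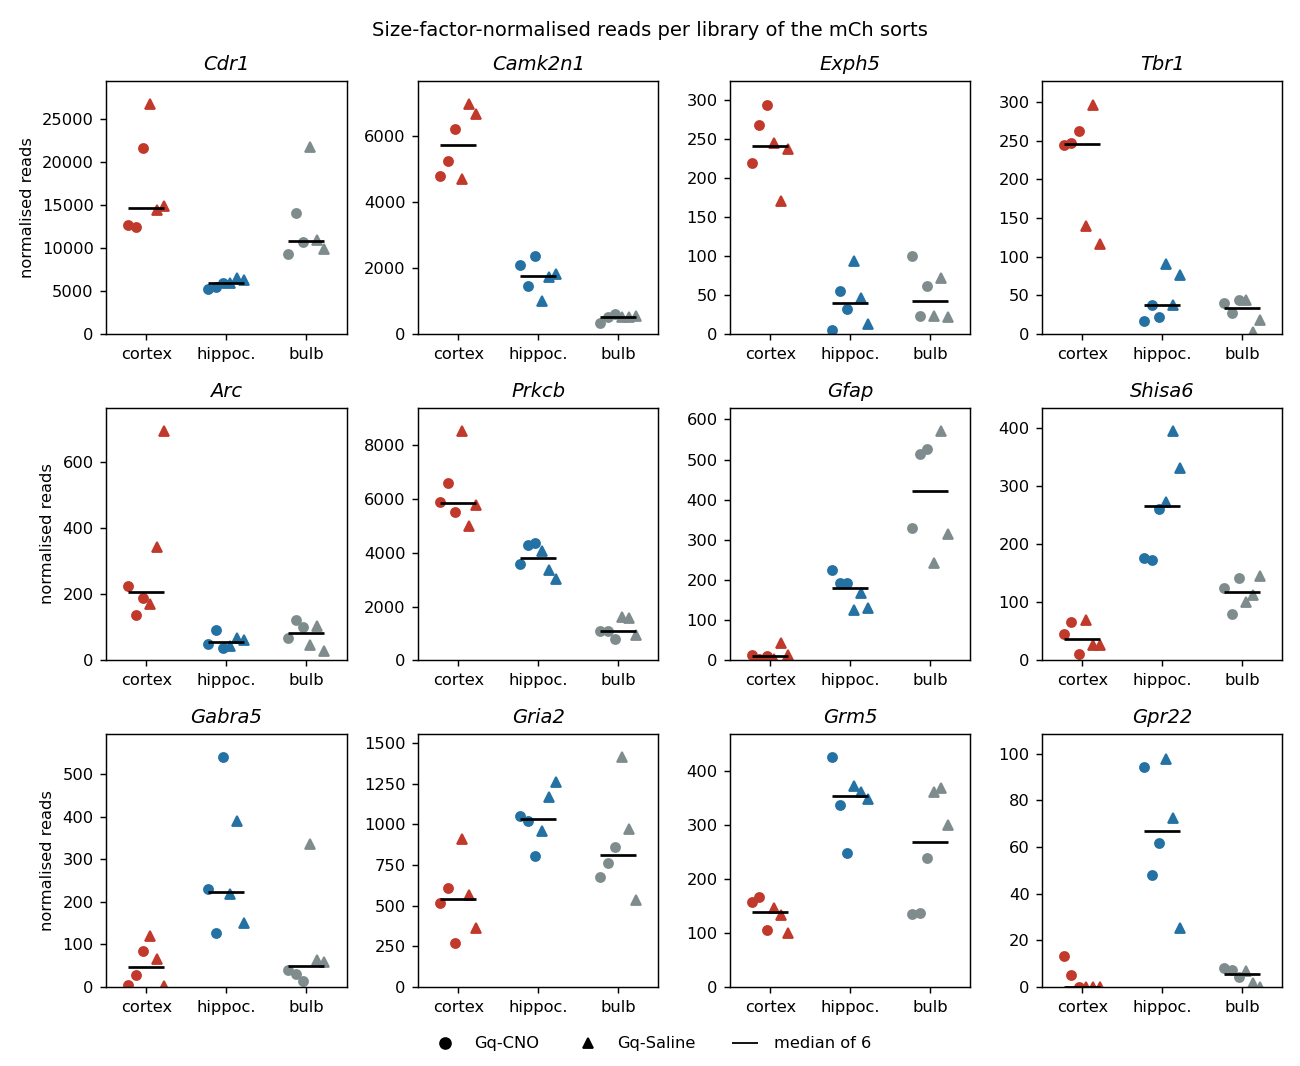
Normalised reads of 12 called genes (vertical axes, from 0) in each library of the mCh sorts from cortex, hippocampus and olfactory bulb (horizontal axes); circles are Gq-CNO, triangles Gq-Saline and bars the median of 6. The first 6 genes were higher and the last 6 lower in cortex than in hippocampus, and only Gria2 of the 12 has overlapping cortical and hippocampal values.

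Gfap, the intermediate filament gene of astrocytes (chr11:102887336-102900912), was lower in cortex. It had between 3.50 and 43.2 normalised reads (median 11.5) in the 6 cortical libraries, against 126 to 226 (median 180.2) in the 6 hippocampal ones. The highest cortical value was well below the lowest hippocampal one (log2 difference -3.92, SE 0.68, adjusted p = 0.00188). Other astrocyte genes did not pass the test. Slc1a2, the main glial glutamate transporter, had 8966 to 17618 (median 13222) in cortical libraries, against 10555 to 19444 (median 15326) in hippocampal ones (log2 difference -0.20, SE 0.15, adjusted p = 0.728). Aldh1l1, whose promoter drives the GFP, had 10.5 to 267 (median 113) in cortical libraries, against 15.22 to 89.4 (median 38.0) in hippocampal ones (log2 difference 1.09, SE 0.70, adjusted p = 0.689). Of the 16 astrocyte markers tested, 10 were lower and 6 higher in cortex, with Gfap the only one called and a median of -0.17, beside -0.18 over all genes. Among all genes 0.115% were called lower and 38.9% were higher in cortex.

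Several of the genes lower in cortex encode receptors or their partners, and they were picked from the called genes after the values were seen. Gabra5 (chr7:57407672-57510059), a GABA-A receptor subunit, had between 3.11 and 121 normalised reads (median 46.4) in the 6 cortical libraries, against 127 to 540.2 (median 225) in the 6 hippocampal ones, without overlap (log2 difference -3.12, SE 0.66, adjusted p = 0.0213). Shisa6 (chr11:66211725-66525964), an auxiliary protein that keeps AMPA receptors at the synapse, had between 10.5 and 69.5 normalised reads (median 36.4) in the 6 cortical libraries, against 173 to 395 (median 266) in the 6 hippocampal ones. Its groups were far apart (log2 difference -2.86, SE 0.49, adjusted p = 0.00158). Grm5, a metabotropic glutamate receptor that couples to Gq proteins, had between 99.5 and 166 normalised reads (median 139.8) in the 6 cortical libraries, against 248 to 426 (median 355) in the 6 hippocampal ones, also without overlap (log2 difference -1.38, SE 0.33, adjusted p = 0.047). Gria2, the AMPA receptor subunit that limits calcium entry, had between 273 and 910.5 normalised reads (median 540.3) in the 6 cortical libraries, against 808 to 1263 (median 1036) in the 6 hippocampal ones. Only cortical Gq-Saline replicate 1 reached into the hippocampal range (log2 difference -1.04, SE 0.25, adjusted p = 0.047). Gpr22, an orphan receptor, was at 0 in 4 of 6 cortical libraries, with 0 to 13.1 (median 0) there, against 25.3 to 97.7 (median 67.0) in hippocampal ones (log2 difference -4.87, SE 1.02, adjusted p = 0.0199). Epha4, a receptor for ephrins, had 19.7 to 227 (median 72.7) in cortical libraries, against 199.6 to 519.6 (median 285) in hippocampal ones, and overlapped slightly (log2 difference -2.07, SE 0.44, adjusted p = 0.0225).

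Of the other genes lower in cortex, Nell2 and Ndnf encode secreted proteins. Nell2 had 14.6 to 97.4 (median 55.9) in cortical libraries, against 153 to 417 (median 199) in hippocampal ones (log2 difference -2.06, SE 0.47, adjusted p = 0.0429). Ndnf, a neuron-derived trophic factor, had 0 to 8.74 (median 1.83) in cortical libraries, against 21.6 to 148 (median 50.6) in hippocampal ones (log2 difference -4.39, SE 1.04, adjusted p = 0.047). Neither overlapped. Wipf3, which binds actin regulators, had 60.8 to 570.4 (median 129) in cortical libraries, against 271 to 842 (median 707) in hippocampal ones (log2 difference -2.02, SE 0.40, adjusted p = 0.011). The cortical library Gq-Saline replicate 1, at 570.4, had more than hippocampal Gq-Saline replicates 1 (271) and 3 (467). An exon of Wipf3 overlaps the gene Scrn1 on the opposite strand, listed at 0 to 137 normalised reads in cortical libraries and 39.0 to 185 in hippocampal ones. Exons of Pdxk, Gabra5, Itpr1, Map2 and Naalad2 also overlap annotated genes of the opposite strand, with the limit given for Cdr1. Malat1, a nuclear noncoding RNA, had 1586 to 4999 (median 2544) in cortical libraries, against 3448 to 9022 (median 4819.9) in hippocampal ones, with overlap (log2 difference -0.94, SE 0.21, adjusted p = 0.0367). Vtn, a matrix protein made by pericytes, had reads in 1 cortical library only, at 7.85, against 12.6 to 103 (median 30.2) in hippocampal ones. Naalad2, a peptidase of the family that cleaves N-acetylaspartylglutamate, likewise had reads in 1 cortical library, at 5.18, against 10.8 to 106 (median 33.8) in hippocampal ones. Adjusted p was 0.0448 for Vtn and 0.047 for Naalad2, and summed mural cell markers, 11 genes with Vtn, were 18.3 to 566 in cortical libraries, against 65.1 to 129 in hippocampal ones. The part of mural cells in the Vtn difference was not tested. The fitted differences of Gpr22, Vtn, Naalad2 and Ndnf depend on the pseudocount, and across settings they ran between -7.12 and -2.54 for Gpr22 and between -7.30 and -2.001 for Vtn.

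Promoters of 4 called genes are shown as examples of each direction, Tbr1 and Prkcb higher in cortex and Gpr22 and Gabra5 lower. The sequences are from RefSeq (GRCm38.p6), from 250 bases before to 50 bases after the start, 5′ to 3′ on the gene's strand. They lie at chr2:61804203-61804502 (plus strand) for Tbr1, chr7:122288875-122289174 (plus strand) for Prkcb, chr12:31713834-31714133 (minus strand) for Gpr22 and chr7:57510010-57510309 (minus strand) for Gabra5. The Tbr1 window follows the RefSeq start and lies inside the GENCODE gene interval given above, downstream of its first base. Capitals mark the letters of a GC box in Tbr1 and Prkcb and of a TATA box in Gpr22. None of the motifs searched is in the Gabra5 window. The match in Gpr22 lies far before the start, and whether any match acts as a promoter element was not tested.
Tbr1: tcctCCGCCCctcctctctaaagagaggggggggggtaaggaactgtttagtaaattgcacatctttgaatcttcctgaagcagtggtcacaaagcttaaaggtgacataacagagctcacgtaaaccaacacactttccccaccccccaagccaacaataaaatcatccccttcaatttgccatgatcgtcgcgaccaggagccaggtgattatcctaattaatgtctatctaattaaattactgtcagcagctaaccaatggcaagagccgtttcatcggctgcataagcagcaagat
Prkcb: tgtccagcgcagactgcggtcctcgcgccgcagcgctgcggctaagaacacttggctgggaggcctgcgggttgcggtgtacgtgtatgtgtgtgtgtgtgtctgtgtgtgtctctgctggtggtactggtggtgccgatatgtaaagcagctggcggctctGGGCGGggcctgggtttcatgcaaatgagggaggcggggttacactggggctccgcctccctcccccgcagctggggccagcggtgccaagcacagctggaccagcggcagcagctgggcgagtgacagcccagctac
Gpr22: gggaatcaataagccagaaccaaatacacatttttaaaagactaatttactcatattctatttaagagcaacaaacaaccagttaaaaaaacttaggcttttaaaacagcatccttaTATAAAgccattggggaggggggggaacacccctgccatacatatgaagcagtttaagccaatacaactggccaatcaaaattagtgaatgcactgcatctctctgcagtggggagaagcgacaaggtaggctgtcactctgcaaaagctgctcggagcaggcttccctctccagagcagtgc
Gabra5: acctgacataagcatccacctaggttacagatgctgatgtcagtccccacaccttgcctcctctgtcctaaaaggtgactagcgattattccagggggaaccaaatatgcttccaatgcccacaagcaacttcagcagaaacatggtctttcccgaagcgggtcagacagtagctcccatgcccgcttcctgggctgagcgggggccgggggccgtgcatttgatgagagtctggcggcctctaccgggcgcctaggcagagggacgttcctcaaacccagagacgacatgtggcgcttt

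Promoters were found for 26 of the 36 called genes and were searched on both strands for 5 motifs, none of which overlaps another in the 4 shown. Some genes have more than 1 promoter. The genes higher in cortex have 23 promoters for 17 genes, and those lower have 10 for 9 genes. The GC box (GGGCGG) was in 15 of 23 promoters of genes higher in cortex (65.2%) and in 2 of 10 promoters of genes lower in cortex (20%), beside 62.6% of the promoters of tested genes. The TATA box (TATAAA) was in 3 of 23 (13.04%) and 2 of 10 (20%), beside 6.89%. The T-box site AGGTGTGA and the cAMP response element TGACGTCA were in none of these promoters, beside 0.724% and 3.09% of those of tested genes. The E-box CAGATGG was in 1 of 23, that of Hpcal4, and in 0 of 10, beside 3.35%. These are counts of letters in the windows, with no test.

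Because cortical libraries were shallower, each library was also thinned at random to 228048 reads, the depth of the shallowest. This left 22 calls, 14 higher and 8 lower in cortex, and 21 of them were among the 36. Gabra5 (-2.91, adjusted p = 0.00729), Shisa6 (-2.76, adjusted p = 0.00557) and Gfap (-4.41, adjusted p = 0.0353) passed at equal depth. Tbr1 had 1.83 there with an adjusted p of 0.301, Gpr22 had -4.90 with 0.171, and neither passed. Sema3a (adjusted p = 0.569), Vtn (0.319), Naalad2 (0.301), Nell2 (0.172) and Ndnf (0.082) did not pass either. Nor did AI597479, Bin2, Fam81a, Grm5, Pdxk, R3hdm1, Rims1 and Trnp1. Without the 2 cortical libraries under 1000000 reads, Gq-Saline replicate 1 and Gq-CNO replicate 3, there were 37 calls, of which 26 were among the 36. Leaving out each library in turn gave 13 to 34 calls, the fewest without cortical Gq-Saline replicate 3. In all 12 of these fits 11 genes passed, Cdr1, Camk2n1, Apc, 4933409K07Rik, Zfp365, Sipa1l1, Dlg2, Itpr1, Exph5, Gfap and Shisa6. The other 25 calls were lost in 1 to 11 of the 12 fits, and each library ended between 9 (cortical Gq-CNO replicate 3) and 23 calls (cortical Gq-Saline replicate 3) when left out. The call of Hpcal4 was lost without cortical Gq-Saline replicate 3, and that of Atp2b2 without that library or cortical Gq-CNO replicate 1. Wipf3 lost its call in 3 fits, Arc and Gpr22 in 4, Tbr1, Gabra5 and Epha4 in 6, Prkcb and Fam81a in 7, and Malat1 and R3hdm1 in 8. AI597479, Map2 and Nell2 lost it in 9, Gria2, Rims1, Trnp1 and Vtn in 10, and Bin2, Grm5, Naalad2, Ndnf, Pdxk and Sema3a in 11.

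Receptor lists and synaptic lists had medians of opposite sign. Of the 17 glutamate receptor genes, 15 were lower and 2 higher in cortex, with Gria2 and Grm5 called lower, none called higher, and a median of -1.04 (edgeR -0.60). Over all genes 0.115% were called lower, 38.9% were higher in cortex and the median was -0.18 (edgeR -0.08). With TMM factors edgeR called 1 of the 17 lower, and DESeq2 called 5. Their summed level was 1542 to 2909 normalised reads in cortical libraries, against 3229 to 3970.1 in hippocampal ones, without overlap. Gria1, another AMPA receptor subunit, had 59.4 to 217 (median 137) in cortical libraries, against 182 to 535 (median 339.5) in hippocampal ones, and missed the threshold (log2 difference -1.44, SE 0.36, adjusted p = 0.0667). Grin2a, an NMDA receptor subunit, had 0 to 83.9 (median 29.9) in cortical libraries, against 64.9 to 303 (median 146) in hippocampal ones (log2 difference -2.97, SE 0.80, adjusted p = 0.11). Cortical medians of both were below the hippocampal ones without the genes passing the test. Of 13 GABA receptor genes, 12 were tested. Of these, 10 were lower and 2 higher in cortex, with a median of -0.58 and only Gabra5 called. The summed level of the 13 was 1416 to 2881 in cortical libraries, against 1885 to 3160 in hippocampal ones, with overlap. Gabra3, an alpha subunit too, had 92.2 to 168 (median 119.9) in cortical libraries, against 19.24 to 75.2 (median 40.7) in hippocampal ones. It pointed the other way without overlap but did not pass (log2 difference 1.64, SE 0.53, adjusted p = 0.313). Gabrb2, a beta subunit, had a log2 difference of -1.06 (SE 0.38, adjusted p = 0.404).

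Of the 22 synaptic genes, which hold vesicle proteins and scaffolds, 15 were higher and 7 lower in cortex, with a median of 0.49 (edgeR 0.45) and only Rims1 called. Beside these, 38.9% of all genes were higher in cortex and 0.204% were called higher. Their summed level was 12146 to 16504 in cortical libraries, against 8874 to 11739 in hippocampal ones, without overlap. The active-zone scaffold Bsn had a log2 difference of 0.81 (SE 0.21, adjusted p = 0.0997), its partner Pclo one of 0.70 (SE 0.20, adjusted p = 0.139), and the postsynaptic scaffold Dlg4 one of 0.86 (SE 0.26, adjusted p = 0.26). None of these 3 passed. Of the 12 neuron markers, 7 were higher and 5 lower in cortex with a median of 0.50, and only Map2 was called. DESeq2 called 3 of the 12 higher and edgeR with TMM factors called 0. Snap25, a vesicle fusion protein, had 2095 to 4223 (median 2699) in cortical libraries, against 1469 to 2246 (median 1723) in hippocampal ones (log2 difference 0.69, SE 0.18, adjusted p = 0.0997). The neurofilament gene Nefl had 430.0 to 646 (median 521) in cortical libraries, against 111 to 409.7 (median 251) in hippocampal ones (log2 difference 1.16, SE 0.29, adjusted p = 0.0831). Nefl was without overlap and Snap25 nearly so, and neither passed. Of 23 voltage-gated channel genes, 16 were lower and 7 higher in cortex, with none called and a median of -0.51 (edgeR -0.30). This split stands beside 38.9% of all genes higher in cortex and a median of -0.18 (edgeR -0.08). Summed channel levels were 3009 to 4114 in cortical libraries, against 3297 to 4087 in hippocampal ones, with overlap.

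**Figure D4:**
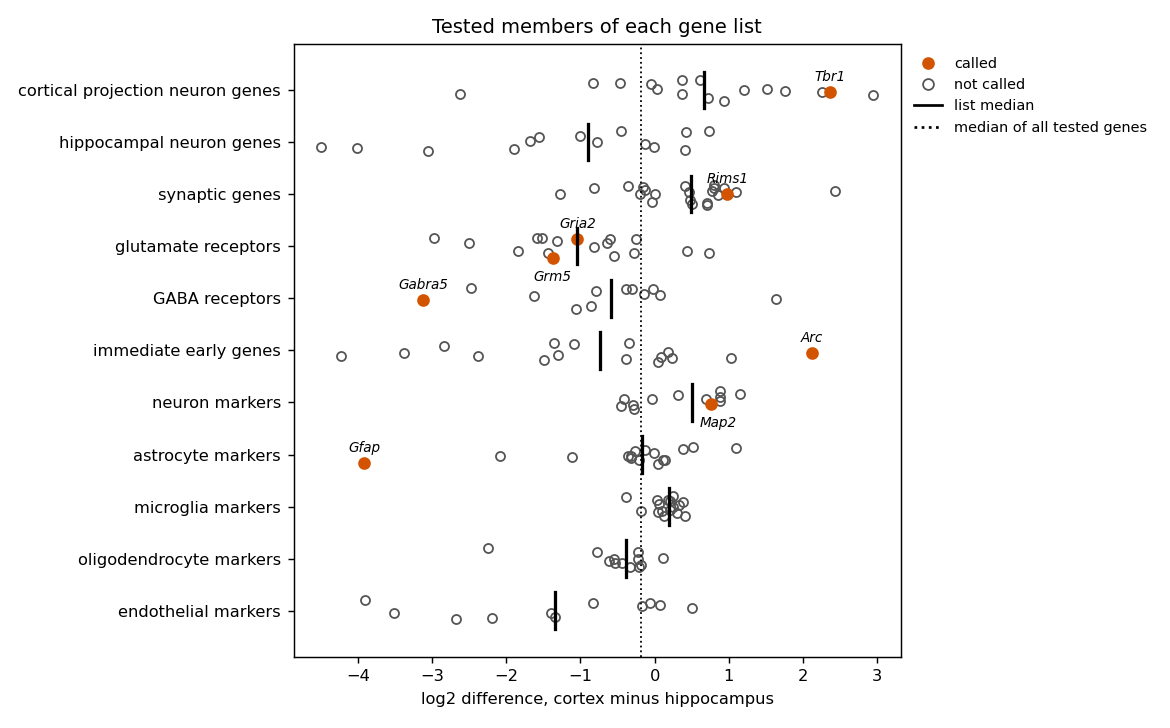
Log2 difference, cortex minus hippocampus (horizontal axis), of each tested member of 11 gene lists (rows). Filled points were called, open points were not, the solid bar is the list's median and the dotted line the median of all 11276 tested genes (-0.18). Glutamate receptors lie mostly left of 0 (15 of 17), and cortical projection neuron genes (12 of 16) and synaptic genes (15 of 22) mostly right of it.

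Genes that mark regional neuron types were described as separate lists. Their summed levels overlapped between the regions. Cortical projection neuron genes summed to 1930 to 5342 normalised reads in cortical libraries, against 1989 to 2739 in hippocampal ones. Hippocampal neuron genes summed to 713 to 2135 in cortical libraries, against 1166 to 1741 in hippocampal ones. Of 16 cortical projection neuron genes, 12 were higher and 4 lower in cortex, the median was 0.67 (edgeR 0.67), and only Tbr1 was called. Among all genes 0.204% were called higher and 38.9% were higher in cortex, with a median of -0.18 (edgeR -0.08). Scube1 had a log2 difference of 2.94 (SE 1.12, adjusted p = 0.43), and Fezf2, a factor of subcerebral projection neurons, had one of -2.62 (SE 1.08, adjusted p = 0.487). Of 19 hippocampal neuron genes, 18 are in the table and 14 were tested, and 11 of these were lower and 3 higher in cortex, with none called. Their median was -0.89 by limma but -0.07 by edgeR. DESeq2 called 3 of the 14 lower and edgeR with TMM factors called 0. Prox1, the granule cell factor, had between 0 and 60.8 normalised reads (median 28.8) in the 6 cortical libraries, against 74.8 to 245 (median 118) in the 6 hippocampal ones, without overlap but short of the threshold (log2 difference -3.05, SE 0.77, adjusted p = 0.0831). Fibcd1, a gene of pyramidal cells, had 3 reads in all in cortical libraries, in 1 library at 3.02 normalised reads, against 5.44 to 43.0 in hippocampal ones (adjusted p = 0.0997). Dsp, a desmosomal protein of granule cells, had 0 to 12.2 (median 0) in cortical libraries, against 0.763 to 198 (median 43.1) in hippocampal ones (adjusted p = 0.0997). Wfs1 had a log2 difference of -1.89 (SE 0.74, adjusted p = 0.459). Zbtb20, a factor of the hippocampal fate, had one of -0.13 (SE 0.37, adjusted p = 0.957), and its sign changed with the setting. The forebrain factor Lhx2 had a difference of -0.04 (SE 0.54, adjusted p = 0.994), and its sign also changed with the setting.

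Smaller excitatory, inhibitory and progenitor lists held no gene called by limma over the 12 libraries. The share of all genes higher in cortex was 38.9%, with a median of -0.18 (edgeR -0.08). Of 9 tested excitatory neuron genes, 4 were higher and 5 lower in cortex (median -0.27, edgeR -0.38), and DESeq2 called 1 lower. In thinned libraries 5 were higher and 4 lower with a median of 0.08, and in libraries of at least 1000000 reads the median was -0.65 with 1 gene called higher. Neurod6 had 0 to 14.1 (median 6.33) in cortical libraries, against 9.92 to 188 (median 63.1) in hippocampal ones (adjusted p = 0.256), and was at 0 in all 6 bulb libraries. Arpp21 had a log2 difference of 0.96 (SE 0.36, adjusted p = 0.421). Of 7 tested interneuron genes, 4 were higher and 3 lower in cortex (median 0.04 by limma, 0.36 by edgeR and 0.64 in thinned libraries), and DESeq2 called 1 lower. Reln, secreted by some interneurons and by Cajal-Retzius cells, had 7.31 to 90.9 (median 37.6) in cortical libraries, against 40.1 to 564 (median 156) in hippocampal ones (log2 difference -2.30, SE 0.66, adjusted p = 0.172). Of 13 tested genes of dentate neurogenesis, 10 were lower and 3 higher in cortex (median -0.64, edgeR -0.23), with differences of -1.56 (SE 0.56, adjusted p = 0.393) for Sox11 and -1.65 (SE 0.79, adjusted p = 0.584) for Hopx. The Hopx difference was -0.74 without cortical Gq-CNO replicate 3.

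Arc was the only member of the immediate early genes that was called. Of the 21 genes of this list, which neurons and other cells switch on within minutes of a stimulus, 16 were tested, 6 higher and 10 lower in cortex, with a median of -0.74 (edgeR -0.40). All tested genes had 38.9% higher in cortex, 0.204% called higher and a median of -0.18 (edgeR -0.08). Fos had 0 to 17.5 (median 0) normalised reads in cortical libraries, against 5.44 to 146 (median 67.1) in hippocampal ones, and did not pass (log2 difference -4.23, SE 1.13, adjusted p = 0.11). Ier2 had 2 reads in all in cortical libraries, in 1 library at 2.07 normalised reads, against 1.20 to 36.5 (median 15.7) in hippocampal ones (adjusted p = 0.264). The phosphatase gene Dusp1 had 0 to 49.0 (median 0.518) in cortical libraries, against 4.81 to 54.9 (median 40.5) in hippocampal ones (adjusted p = 0.47). The cortical medians of these 3 were below the hippocampal ones, opposite to Arc. In cortical libraries Fos had at most 10 reads and Dusp1 at most 28.

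Corticosteroid receptors and their responsive genes were also described. Of 14 tested, 6 were higher and 8 lower in cortex (38.9% of all genes were higher), none was called, and the median was -0.10 (edgeR -0.32). In libraries of at least 1000000 reads 8 were higher and 6 lower, with a median of 0.21. Nr3c2, the mineralocorticoid receptor, which is known to be rich in hippocampus, had 0 to 66.7 (median 18.7) in cortical libraries, against 51.9 to 148 (median 86.8) in hippocampal ones (log2 difference -3.44, SE 0.97, adjusted p = 0.159; edgeR -1.87). Nr3c1, the glucocorticoid receptor, had 293 to 606 (median 404) in cortical libraries, against 313 to 614 (median 515) in hippocampal ones (log2 difference -0.20, SE 0.27, adjusted p = 0.888). Klf9, a target of that receptor, had a difference of 0.90 (SE 0.34, adjusted p = 0.421). Slc22a3, the organic cation transporter named in the title of the series, did not reach the level needed for the test.

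Glial lists held no called gene but Gfap. For the splits below, 38.9% of all genes were higher in cortex, with a median of -0.18 (edgeR -0.08). Of 16 microglia markers, 14 were higher and 2 lower in cortex, with a median of 0.19 (edgeR 0.13), and the split was 9 against 7 after quantile normalisation. Csf1r, a receptor that microglia need to survive, had 6395 to 8764 (median 7206) in cortical libraries, against 5478 to 9033 (median 5937) in hippocampal ones (log2 difference 0.21, SE 0.14, adjusted p = 0.707). Siglech had a difference of 0.38 (SE 0.18, adjusted p = 0.569), the complement gene C1qb one of 0.33 (SE 0.16, adjusted p = 0.591), the fractalkine receptor Cx3cr1 one of 0.41 (SE 0.20, adjusted p = 0.593) and the purine receptor P2ry12 one of 0.30 (SE 0.17, adjusted p = 0.642). None of these 5 passed, and 2 of the 16 markers had an unadjusted p below 0.05. Of 12 oligodendrocyte markers, 11 were lower and 1 higher in cortex (median -0.39), with -0.22 (SE 0.18, adjusted p = 0.773) for Mbp, a main protein of myelin, and -0.44 (SE 0.20, adjusted p = 0.56) for Cnp. Of 11 tested endothelial markers, 9 were lower and 2 higher in cortex, with a median of -1.35 (edgeR -0.96). DESeq2 called 1 of the 11 lower. Tek, an endothelial receptor kinase, was at 0 in 5 of 6 cortical libraries and reached 3.66 in the other, against 0.906 to 73.9 (median 25.2) in hippocampal ones (adjusted p = 0.13). Kdr, the receptor of vascular growth factor, had 0 to 5.25 (median 0) in cortical libraries, against 4.98 to 83.0 (median 12.6) in hippocampal ones (adjusted p = 0.255).

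Lists of general cell functions held no called gene. Their splits stand beside 38.9% of all genes higher in cortex and a median of -0.18 (edgeR -0.08). Cholesterol synthesis genes supply membranes and myelin; of 19 tested genes, 4 were higher and 15 lower in cortex (median -0.53, edgeR -0.34). Disease-associated microglia genes form a program of reactive microglia; of 18 tested genes, 5 were higher and 13 lower in cortex (median -0.31, edgeR -0.27). Of the ribosomal protein list's 20 tested genes, 12 were higher and 8 lower in cortex (median 0.04, edgeR 0.01), and of the oxidative phosphorylation list's 18 tested genes, 10 were higher and 8 lower in cortex (median 0.04, edgeR 0.08). Perineuronal matrix genes build the nets around some neurons; of 9 tested genes, 7 were higher and 2 lower in cortex (median 0.15, edgeR 0.17).

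No region difference was called as dependent on treatment by limma. The change of the difference between Gq-CNO and Gq-Saline was called for 0 of 11276 genes (0%), with 480 at an unadjusted p below 0.05 and a smallest adjusted p of 0.997. edgeR also called 0 and DESeq2 called 12. With 3 against 3 libraries, Gq-CNO alone gave 4 calls for region and Gq-Saline alone gave 3. Camk2n1 differed by 1.48 in Gq-CNO libraries and by 2.04 in Gq-Saline ones, and Gfap differed by -4.50 in Gq-CNO libraries and by -3.33 in Gq-Saline ones. Gpr22 differed by -3.90 in Gq-CNO libraries and by -5.84 in Gq-Saline ones. The widest gaps among the genes higher in cortex were those of Tbr1, at 3.34 in Gq-CNO libraries and 1.39 in Gq-Saline ones, and of AI597479, at 1.13 in Gq-CNO libraries and 2.83 in Gq-Saline ones. Both interactions had an adjusted p of 0.997.

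**Figure D5:**
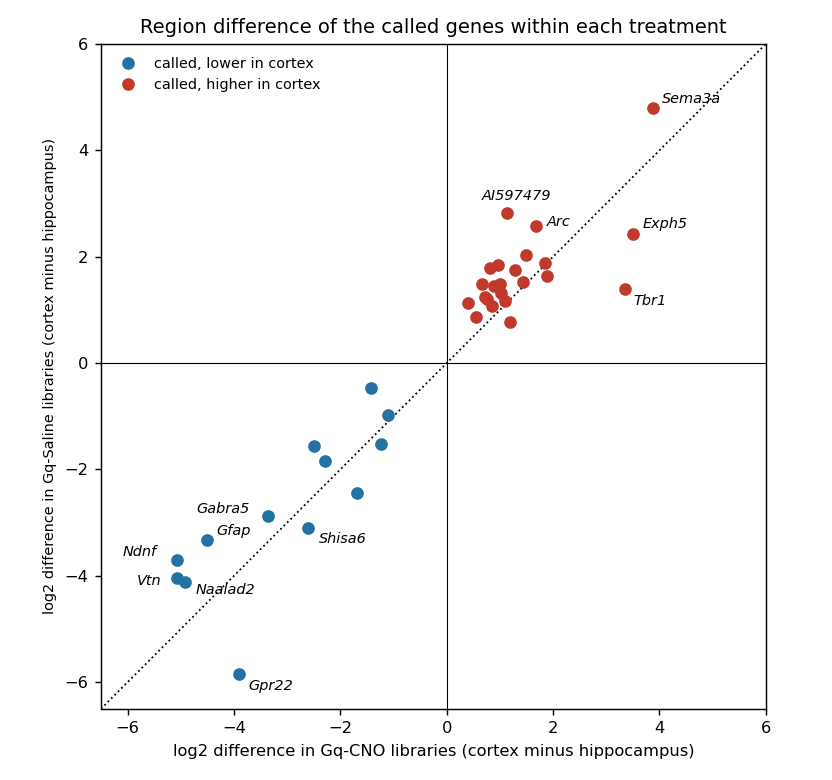
Log2 difference, cortex minus hippocampus, of the 36 called genes in the 3 against 3 Gq-CNO libraries (horizontal axis) and in the 3 against 3 Gq-Saline libraries (vertical axis). Red points were higher and blue points lower in cortex over all 12 libraries, and the dotted line marks equal differences. Tbr1 lies at 3.34 and 1.39, the farthest below the line among the genes higher in cortex.

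The olfactory bulb libraries give one more level for the called genes. Over 12358 genes tested in 18 libraries, cortex differed from bulb for 1128 genes (9.13%), and hippocampus differed from bulb for 500 (4.05%). These comparisons share the bulb libraries with each other and their cortical and hippocampal libraries with the results above, so their values are only set side by side. Camk2n1 had 344 to 597 (median 512) normalised reads in bulb, below both regions, with a log2 difference of 3.51 for cortex (adjusted p = 1.33e-17) and 1.75 for hippocampus (adjusted p = 8.51e-09). Cdr1 had 9235 to 21665 (median 10748) in bulb, with 0.43 for cortex (adjusted p = 0.083) and -1.05 for hippocampus (adjusted p = 1.66e-05). For Cdr1 the hippocampus was thus the low region. Sema3a also was low in hippocampus, with 41.0 to 115 (median 64.0) in bulb and a hippocampal difference of -4.95 (adjusted p = 4.81e-05). The Sema3a difference between cortex and hippocampus did not pass at equal depth. Of the 23 genes called higher in cortex, 21 were also called higher in cortex than in bulb. Hippocampus was called lower than bulb for 2 of the 23.

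Gfap had 243 to 572 (median 422) in bulb, above both regions, and the cortical difference was -5.15 (adjusted p = 1.38e-10). Gpr22 had 0 to 8.11 (median 5.51) in bulb, and the hippocampal difference was 3.78 (adjusted p = 0.0097). Nell2 had 26.6 to 76.5 (median 50.7) in bulb, with 2.12 for hippocampus (adjusted p = 0.00383). For Gpr22 and Nell2 the hippocampus was the high region among the 3, and Wipf3, with 32.3 to 242 (median 150.2) in bulb, was alike (2.42, adjusted p = 4.01e-04). Ndnf had 78.9 to 309 (median 177) in bulb and Vtn had 68.1 to 169 (median 116). For both the cortex was the low region, with cortical differences of -5.93 for Ndnf (adjusted p = 4.63e-07) and -6.31 for Vtn (adjusted p = 5.92e-07). At equal depth Gpr22, Nell2, Ndnf and Vtn did not pass between cortex and hippocampus. The comparisons with bulb were not repeated at equal depth.

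The same genes were read in the GFP astrocyte sorts of cortex and hippocampus, each with 6 libraries in a table normalised apart, so RPM values are given without a test. Of the 6 columns of each region, 2 carry a replicate number that no title gives, and they were matched to region, sort and treatment but not to a numbered library. Gfap had 89.1 to 229 RPM in cortical GFP libraries, against 558 to 862 in hippocampal ones, lower in cortex without overlap there too. Camk2n1 had 597 to 913 RPM in cortical GFP libraries, against 249 to 332 in hippocampal ones, again higher in cortex without overlap. Cdr1 had 315 to 769 RPM in cortical GFP libraries, against 224 to 357 in hippocampal ones, with overlap. Gabra5 had 0 to 1.05 RPM in cortical GFP libraries, against 1.60 to 93.6 in hippocampal ones, and Tbr1 had 1.36 to 9.23 RPM in cortical ones, against 0 to 10.9 in hippocampal ones. Whether the GFP and mCh libraries came from the same animals is not given in the labels used here.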

How the data were processed

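The authors deposited normalised signal values, gene read counts divided by 1 size factor per library, in 1 table for the 18 mCh libraries labelled as neurons, and GFP libraries in separate tables. The submitters' processing notes name STAR 2.5.0a with the build mm10, DESeq2 1.30.1, MultiQC 1.11 and FastQC 0.11.7. Per the labels, libraries were made from 10 ng of total RNA. The strand setting of counting is not given in the sources used here.

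Genes that reached 10 in 3 or more of the 12 libraries were fitted on log2(value + 1) with limma 3.58.1 (R 4.3.3), with region and treatment as terms, a mean-variance trend and no block. edgeR 4.0.16 and DESeq2 1.42.0 were run on whole reads recovered from the values (all within 0.05 of a whole number). Depths are sums of these reads, and reads are not independent molecules. Each SE is from the limma fit and measures the spread among libraries. No pair of libraries in a group agreed within sampling noise. The scripts were tested on simulated data. Up to 15 genes per direction were named, those with the largest log2 difference among called genes without overlap whose higher region mean reached the median, leaving out gene models, plus fixed genes and leading list members, of which some are not reported here. Members and lists were chosen with earlier results of these data known. Of 24421 gene entries, 27 have names turned into dates.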

Additional observations from a re-analysis of the deposited data

Results flagged for a closer look

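Of 72 groups of 6 values examined, 2 held a value far from the other 5, by most of the group's range. Chance alone gives such a value in about 1 in 20 groups of normally distributed values, a rate that does not hold for groups mostly at 0. In both groups found, the other 5 values were 0, so the gap was the whole range. Vtn, a matrix protein gene, had 7.85 normalised reads (4 reads) in cortical Gq-Saline replicate 2 and 0 in the other 5 cortical libraries. Naalad2, a peptidase gene, had 5.18 normalised reads (5 reads) in cortical Gq-Saline replicate 3 and 0 in the other 5.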

How the results depend on the processing

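The count of 36 genes called between cortex and hippocampus became 15 with a pseudocount of 0.1, 9 with no filter on low values, 23 with edgeR and TMM factors, 22 with edgeR and DESeq2 size factors, 110 with DESeq2, 8 without the mean-variance trend, 4 in Gq-CNO libraries only, 3 in Gq-Saline libraries only and 22 in thinned libraries. Leaving out 1 library gave 13 to 34. The 23 higher in cortex became 13 with the pseudocount of 0.1, 7 without a filter, 66 with DESeq2, 2 without the trend, 2 in Gq-CNO and 3 in Gq-Saline libraries only, 14 after thinning and 10 to 23 with 1 library left out. The 13 lower in cortex became 2 with the pseudocount of 0.1, 2 without a filter, 8 with a stricter filter, 6 with edgeR and TMM, 3 with edgeR and DESeq2 size factors, 44 with DESeq2, 6 without the trend, 24 with all 18 libraries, 2 in Gq-CNO and 0 in Gq-Saline libraries only, 8 after thinning and 2 to 11 with 1 library left out. Quantile normalisation gave 20 higher and 19 lower. The interaction with treatment was called for 12 genes by DESeq2 and for 0 in every limma fit with 1 library left out, and edgeR called 733 genes between cortex and bulb, against 1128 by limma. With the replicate block there were 57 calls, 34 higher and 23 lower. Correlations of same-numbered samples were -0.000544 to 0.0492, and 4 of 6 cortical samples correlated best with their own number within a treatment. The labels give no pairing, so the numbers were not taken as pairs. The causes of these changes were not tested.

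None of the 36 reversed, which their choice on these same libraries largely fixed. Of genes not called, Aldh1l1 turned to -0.37 in Gq-CNO libraries only. Zbtb20 turned to 0.0158 with edgeR and DESeq2 size factors, 0.0120 with DESeq2, 0.0522 in Gq-Saline libraries only and 0.0152 in libraries of at least 1000000 reads, and ran from -0.38 to 0.22 with 1 left out. Lhx2 turned to 0.0305 with edgeR and TMM, 0.12 with edgeR and DESeq2 size factors, 0.12 with DESeq2 and 0.60 in Gq-CNO libraries only, and ran from -0.50 to 0.21. Depth limits the cortical zeros: in cortical Gq-CNO replicate 3 a gene at 0 may stand at up to 3 reads.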
